A study of Mus musculus with 13 samples.

Results

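The 10 genes described here encode the enzymes and receptors of endocannabinoid signalling: *Mgll*, *Abhd6*, *Abhd12*, *Faah*, *Dagla*, *Daglb*, *Napepld*, *Cnr1*, *Cnr2* and *Gpr18*. They were chosen by name, as the drug target of the experiment (*Mgll*), the other enzymes that make or break down the 2 best known endocannabinoids, and receptors, and each symbol matched 1 of the 47643 genes in the count table. RNA was sequenced from brain microvessel preparations of 13 male CD1 mice aged 8 to 10 weeks. The 4 sham-vehicle mice received PBS in place of lipopolysaccharide (LPS) and the vehicle of the compound (DMSO, Cremophor and saline). The 5 LPS-vehicle mice received LPS of *Salmonella enterica* typhimurium, 3 mg/kg intraperitoneally at 0, 6 and 24 h, with the same vehicle. The 4 LPS-CPD-4645 mice received the same LPS and, 30 min after each dose according to the labels, 10 mg/kg of CPD-4645 under the skin. The sources give differing delays, and that of the labels is used here. CPD-4645 inhibits monoacylglycerol lipase (MAGL). All mice were killed at 28 h. No group received CPD-4645 without LPS, so the effect of the compound alone was not measured. The brains were not perfused, and blood cells inside the vessels were part of the material.

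Endocannabinoids are lipid messengers made on demand from membrane phospholipids. 2-arachidonoylglycerol (2-AG) is made by the diacylglycerol lipases DAGLα and DAGLβ (*Dagla*, *Daglb*) and hydrolysed to arachidonic acid by MAGL (*Mgll*), ABHD6 and ABHD12. Anandamide can be released from its precursor by NAPE-PLD (*Napepld*) and is hydrolysed by FAAH. Both lipids act on the G protein-coupled receptors CB1 (*Cnr1*), which is abundant on presynaptic nerve terminals, and CB2 (*Cnr2*), which is found mainly on immune cells, while GPR18 (*Gpr18*) is an orphan-type receptor of lymphoid and myeloid cells that has been proposed as a target of the anandamide metabolite N-arachidonoylglycine.

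Total counts per library ran from 7813559 (LPS-vehicle mouse 3) to 55133373 (LPS-vehicle mouse 2), and the library of LPS-CPD-4645 mouse 1, with 12548404, was the next smallest. Levels are given as CPM (counts scaled to library totals that were adjusted by TMM) and changes as log2 fold changes with their standard error (SE) from 1 edgeR quasi-likelihood fit of the 3 groups over the 17285 genes tested. A gene was called when its p, adjusted by the Benjamini-Hochberg procedure, was at most 0.05. All 10 genes passed the filter on low counts, *Gpr18* and *Cnr2* solely through the 2 LPS groups. The 3 comparisons share mice, so they are not independent of each other. Summed per kb of exon, 8 neuronal markers held 2764 to 3770 CPM per kb per mouse and 8 endothelial markers 122 to 316, so the preparations held much neuronal RNA beside vascular RNA. In such bulk material, fewer cells of a type and less RNA per cell cannot be told apart.

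Levels per kb of exon, which can be compared between genes, were highest for *Abhd12* and lowest for *Gpr18* and *Cnr2* in each group. Averaged over the 3 group means, *Abhd12* stood at 164 CPM per kb, *Faah* at 23.9, *Mgll* at 23.5, *Abhd6* and *Cnr1* both at 19.4, *Dagla* at 13.5, *Daglb* at 10.1 and *Napepld* at 5.73. *Gpr18* (0.703 CPM per kb) and *Cnr2* (0.0899 CPM per kb) were the lowest. Within sham-vehicle mice, *Abhd12* (153.7 to 168 CPM per kb) lay clear of all others, whereas *Faah* (21.6 to 27.6), *Cnr1* (18.9 to 26.5), *Mgll* (21.7 to 23.8) and *Abhd6* (20.1 to 21.8) overlapped. *Dagla* (12.8 to 15.8 CPM per kb) and *Daglb* (10.7 to 13.5) overlapped as well, and *Napepld* (4.39 to 5.82) lay below both. Among the 2-AG hydrolases, *Abhd12* therefore held 78.9% ± 0.223 (SD, n = 4) of the summed level per kb in sham-vehicle mice and *Mgll* 11.0% ± 0.307. These are shares of mRNA and do not measure enzyme activity.

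**Figure D1:**
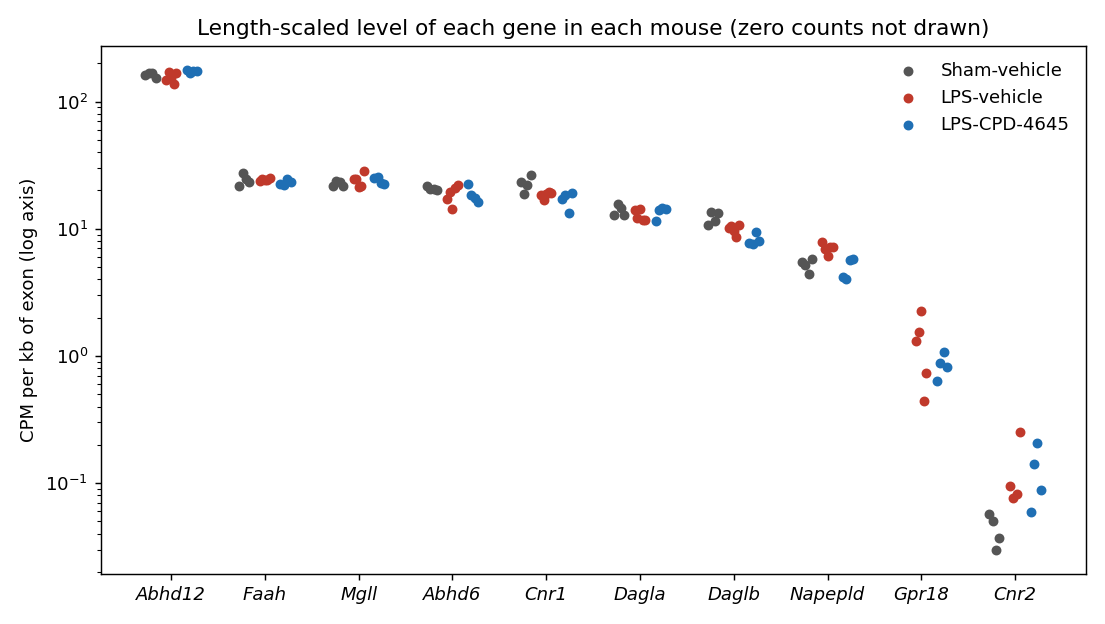
Level of each gene in each mouse in CPM per kb of exon on a log axis, with 1 point per mouse coloured by group and genes in order of their mean. *Abhd12* sits between 138 and 177 CPM per kb in every mouse, and *Gpr18* has no sham-vehicle point because its count was 0 there.

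The start regions of 4 genes are shown: the drug target *Mgll*, which was not called in any comparison, and *Napepld*, *Daglb* and *Gpr18*, which were called after LPS. Each run holds 250 bases before and 50 after a RefSeq transcript start on GRCm38.p6 and reads 5′ to 3′ on the strand of the gene. Capitals mark matches to 8 motifs searched on both strands: AP-1 (TGANTCA), the gamma-activated site (TTCNNNGAA), the interferon-stimulated response element, the cyclic AMP element (TGACGTCA), the E-box (CACGTG), the GC box (GGGCGG), the TATA box (TATAAA) and NF-kB, of which the response element and NF-kB are given by name alone.
Mgll, chr6:88724162-88724461, plus strand: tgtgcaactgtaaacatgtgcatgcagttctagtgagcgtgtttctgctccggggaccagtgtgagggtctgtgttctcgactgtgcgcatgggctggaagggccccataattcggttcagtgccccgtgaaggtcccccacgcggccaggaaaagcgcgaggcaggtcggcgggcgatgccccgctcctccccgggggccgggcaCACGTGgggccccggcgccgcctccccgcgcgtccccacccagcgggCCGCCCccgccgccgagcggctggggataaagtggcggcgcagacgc
Napepld, chr5:21701573-21701872, minus strand: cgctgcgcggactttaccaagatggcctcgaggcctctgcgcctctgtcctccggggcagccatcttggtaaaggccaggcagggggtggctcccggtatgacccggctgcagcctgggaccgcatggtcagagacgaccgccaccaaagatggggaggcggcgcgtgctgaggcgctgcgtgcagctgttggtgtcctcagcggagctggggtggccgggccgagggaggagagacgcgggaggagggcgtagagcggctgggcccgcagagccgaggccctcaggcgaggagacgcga
Daglb, chr5:143464243-143464542, plus strand: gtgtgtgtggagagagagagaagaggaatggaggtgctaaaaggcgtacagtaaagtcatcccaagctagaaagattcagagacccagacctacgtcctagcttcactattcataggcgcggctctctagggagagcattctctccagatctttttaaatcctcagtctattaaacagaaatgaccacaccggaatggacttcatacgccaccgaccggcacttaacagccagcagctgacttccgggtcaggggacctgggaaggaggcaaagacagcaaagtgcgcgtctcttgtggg
Gpr18, chr14:121915839-121916138, minus strand: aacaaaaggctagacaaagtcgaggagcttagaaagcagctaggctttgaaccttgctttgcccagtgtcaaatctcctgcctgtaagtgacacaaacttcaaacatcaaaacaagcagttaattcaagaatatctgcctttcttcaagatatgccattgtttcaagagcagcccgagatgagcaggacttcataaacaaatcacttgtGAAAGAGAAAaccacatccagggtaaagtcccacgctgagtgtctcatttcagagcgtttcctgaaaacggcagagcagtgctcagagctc

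*Mgll* held an E-box that begins 44 bases before the start and a GC box just after it, whereas the interferon-stimulated response element letters in the *Gpr18* window begin 41 bases before the start. *Cnr1*, which was called between LPS-CPD-4645 and sham-vehicle mice and is not printed, also held an E-box, 49 bases before its start, so the E-box is not particular to the uncalled gene. Over the 32851 RefSeq promoters of this length, 7.15% held the E-box, 35.7% the GC box and 3.44% the interferon-stimulated response element letters. None of the 8 motifs was found in the *Napepld* and *Daglb* windows, which says only that these letters are not in these windows. The RefSeq starts used lie 226 bases from the GENCODE gene start for *Napepld*, 107 for *Gpr18* and 91 for *Daglb*, and 8 of the 10 genes had an entry.

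Relative to sham-vehicle, 3 of the 10 genes were called after LPS, where 19.9% of all genes tested were called: *Gpr18* and *Napepld* rose and *Daglb* fell. In LPS-CPD-4645 relative to LPS-vehicle mice, 2 of the 10 genes were called, *Napepld* and *Daglb*, and both fell (30.5% of all genes). Between LPS-CPD-4645 and sham-vehicle mice, *Gpr18* was higher and *Daglb* and *Cnr1* were lower (3 of 10 genes; 38.8% of all genes). The median log2 fold change of the 10 genes was −0.04, −0.05 and −0.06 in these comparisons, against −0.00, −0.02 and −0.01 over all genes tested. A change of at least 2-fold was reached by *Gpr18* alone, in both comparisons with sham-vehicle. At this size 5.68% and 11.1% of all genes were called. *Gpr18* passed the filter on low counts only through the LPS groups, so its calls add nothing to its levels. *Gpr18* aside, the genes called were *Napepld* and *Daglb* after LPS, and *Daglb* and *Cnr1* between LPS-CPD-4645 and sham-vehicle mice. Each of these changes was below 2-fold. Between the LPS groups edgeR called 0 of the 10 genes at 2-fold or more (5.9% of all genes), limma-voom and DESeq2 also called 0, and at an unadjusted p under 0.05 edgeR gave 2 genes, of which 0 reached 2-fold.

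**Figure D2:**
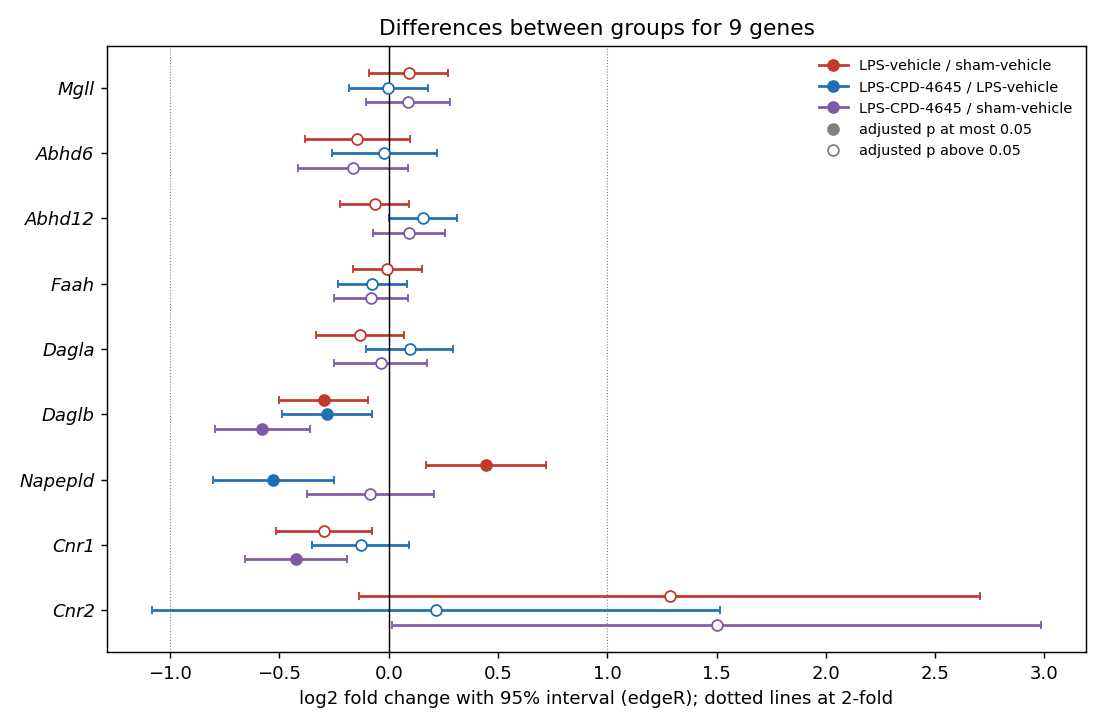
Log2 fold change (x axis) with its 95% interval for 9 genes in the 3 comparisons, with filled points at an adjusted p of at most 0.05. *Napepld* lies right of 0 after LPS and left of 0 under CPD-4645, *Daglb* lies left of 0 in all 3, and *Gpr18* is left out because its sham-vehicle counts were 0.

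*Mgll* (chromosome 6, 88724412 to 88828360, plus strand) encodes MAGL, the main target of CPD-4645, which is also described as a partial inhibitor of ABHD6 and FAAH. An inhibitor acts on the protein, so the mRNA level does not measure the block. *Mgll* stood at 104, 115, 112 and 104 CPM in the sham-vehicle mice. The LPS-vehicle mice had 119, 118, 102, 104 and 136 CPM. Under CPD-4645 the values were 122, 123, 110 and 108 CPM. The 3 groups overlapped, and the highest value belonged to LPS-vehicle mouse 5. LPS-vehicle and LPS-CPD-4645 means were 116 ± 13.8 (SD, n = 5) and 116 ± 7.76 CPM (SD, n = 4), with a difference of −0.00 on the log2 scale (SE 0.086, adjusted p = 0.99, edgeR with Benjamini-Hochberg adjustment) whose sign changes with DESeq2's scaling. Its 95% interval ran from −12.0% to 13.2%. The difference of LPS-vehicle from sham-vehicle was 0.09 (SE 0.086, adjusted p = 0.52, edgeR with Benjamini-Hochberg adjustment), with an interval from −6.07% to 20.7%. An antisense gene, *Gm26588*, shares 152 exon bases with *Mgll* on the other strand and stood at 1.08 CPM or less on average in each group.

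*Abhd12*, an integral membrane lipase that also hydrolyses lysophosphatidylserine, had the highest level of the 10 genes (chromosome 2, 150832493 to 150904741, minus strand). Sham-vehicle mice had 325, 336, 332 and 307 CPM, and LPS-vehicle mice 295, 342, 308, 275 and 333 CPM. All 4 LPS-CPD-4645 mice stood between 333 and 354 CPM, and this range still overlapped the LPS-vehicle range. The difference between the LPS groups was 0.16 (SE 0.074, adjusted p = 0.12, edgeR with Benjamini-Hochberg adjustment), with an interval from −0.035% to 24.1%. *Abhd6* (chromosome 14, 8002902 to 8056763, plus strand), whose product faces the inner side of the membrane, ran from 47.7 to 51.5 CPM in sham-vehicle, 33.8 to 51.7 in LPS-vehicle and 38.5 to 52.9 in LPS-CPD-4645 mice. The sham-vehicle mice lay close together, while 6 of the 9 LPS mice lay below their range and 2 above it. *Abhd6* was not called in any comparison, although without the 2 smallest libraries it was called lower in LPS-CPD-4645 than in sham-vehicle mice (log2 fold change −0.26, adjusted p = 0.0496, edgeR with Benjamini-Hochberg adjustment).

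*Daglb* and *Dagla* encode the lipases that make 2-AG, DAGLα being the main one of the adult nervous system and DAGLβ known from microglia and macrophages. *Daglb* (chromosome 5, 143464584 to 143505942, plus strand) stood at 49.9, 62.9, 53.7 and 61.4 CPM in the sham-vehicle mice. LPS-vehicle mice had 47, 49.2, 44.9, 40.3 and 50.2 CPM. LPS-CPD-4645 mice had 35.8, 35, 44 and 37.6 CPM. The group means stepped down from 57.0 ± 6.21 (SD, n = 4) over 46.3 ± 3.92 (SD, n = 5) to 38.1 ± 4.08 CPM (SD, n = 4), and neighbouring groups overlapped at their edges, while all LPS-CPD-4645 mice lay below all sham-vehicle mice. After LPS *Daglb* fell by 18.6% (log2 fold change −0.30, SE 0.097, adjusted p = 0.037, edgeR with Benjamini-Hochberg adjustment). Under CPD-4645 it fell by a further 17.7% relative to LPS-vehicle (−0.28, SE 0.098, adjusted p = 0.037, edgeR with Benjamini-Hochberg adjustment). From sham-vehicle to LPS-CPD-4645 it fell by 33.0% (−0.58, SE 0.10, adjusted p = 0.00026, edgeR with Benjamini-Hochberg adjustment). This last difference was called in all 22 alternative fits, whereas the call after LPS was lost in 8 and the call between the LPS groups in 11 of them, with adjusted p values up to 0.11 and 0.12 (adjusted by Benjamini-Hochberg in edgeR). Leaving out both smallest libraries gave log2 fold changes of −0.29 after LPS (adjusted p = 0.072) and −0.26 between the LPS groups (adjusted p = 0.095, both edgeR with Benjamini-Hochberg adjustment), close to the values over all mice.

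Of the 4651 exon bases of *Daglb*, 2309 overlap exons of *Rac1* on the other strand. The libraries were stranded, but the column of the aligner's strand output that was deposited is not given in the sources used here. As a check, 360 genes lie wholly inside exons of the other strand, and 163 of them had counts, 26 with at least 100. *Rac1* stood at 416 ± 16.1 (SD, n = 4), 413 ± 32.3 (SD, n = 5) and 481 ± 23.6 CPM (SD, n = 4) in sham-vehicle, LPS-vehicle and LPS-CPD-4645 mice. It rose under CPD-4645 by 0.22 on the log2 scale (SE 0.074, adjusted p = 0.031, edgeR with Benjamini-Hochberg adjustment), the direction opposite to that of *Daglb*. *Dagla* (chromosome 19, 10245265 to 10304877, minus strand) ran from 72.1 to 88.9, 65.9 to 80.5 and 65.0 to 81.7 CPM in the 3 groups and was not called in any comparison. *Daglb* made up 46.7% ± 2.70 (SD, n = 4) of the summed level per kb of the pair in sham-vehicle, 43.8% ± 3.26 (SD, n = 5) in LPS-vehicle and 37.6% ± 2.54 (SD, n = 4) in LPS-CPD-4645 mice, given here as a description. Microglial markers summed to 164 to 213 CPM in sham-vehicle, 118 to 205 in LPS-vehicle and 100 to 128 in LPS-CPD-4645 mice, and of the 7 markers 3 fell after LPS, 1 rose and 2 fell between the LPS groups, and 7 fell between sham-vehicle and LPS-CPD-4645 mice. None of the 7 was at 0 in every mouse of a group. Other lists fell as well: 4 of 6 oligodendrocyte, 4 of 8 pericyte and smooth muscle and 2 of 8 neuronal markers fell after LPS, and 2, 5 and 2 of them were lower in LPS-CPD-4645 than in sham-vehicle mice. In each comparison with sham-vehicle 1 pericyte and smooth muscle marker rose, 1 oligodendrocyte marker rose after LPS, and between the LPS groups 2 oligodendrocyte markers and 1 neuronal marker rose and 1 oligodendrocyte marker fell. The oligodendrocyte sums were 4450 to 6387, 3158 to 4180 and 3688 to 4762 CPM in the 3 groups, and the pericyte and smooth muscle sums 249 to 375, 180 to 302 and 217 to 285 CPM. The part of any of these cells in the *Daglb* differences was not tested.

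*Napepld* moved up after LPS and down under CPD-4645. The gene (chromosome 5, 21662901 to 21701396, minus strand) encodes a phospholipase D that releases anandamide and related N-acylethanolamines. Sham-vehicle mice had 21.6, 20.6, 17.4 and 23 CPM. All 5 LPS-vehicle mice were higher, at 31.1, 27.6, 23.9, 28.6 and 28.6 CPM. LPS-CPD-4645 mice had 16.5, 15.8, 22.5 and 22.8 CPM. Every LPS-vehicle mouse thus stood above every mouse of the other groups, and the smallest gap was that between LPS-vehicle mouse 3 (23.9 CPM) and sham-vehicle mouse 4 (23 CPM). Such separation was found for 2 of the 10 genes, *Napepld* and *Gpr18*, between LPS-vehicle and sham-vehicle (18.1% of all genes) and for 1 of 10 between the LPS groups (23% of all genes). Between LPS-CPD-4645 and sham-vehicle mice it was found for 3 of 10, *Daglb*, *Gpr18* and *Cnr2* (37.5% of all genes). *Gpr18* and *Cnr2* passed the filter on low counts only through the LPS groups, so their separation from sham-vehicle adds nothing to the levels themselves.

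The rise of *Napepld* after LPS was 36.1% (log2 fold change 0.44, SE 0.13, adjusted p = 0.022, edgeR with Benjamini-Hochberg adjustment), with a 95% interval from 12.6% to 64.5%. It held in 20 of 22 alternative fits. Without sham-vehicle mouse 3 it was 0.37 (adjusted p = 0.086) and without LPS-vehicle mouse 1 it was 0.40 (adjusted p = 0.056, both edgeR with Benjamini-Hochberg adjustment). Under CPD-4645 *Napepld* fell by 30.6% relative to LPS-vehicle (log2 fold change −0.53, SE 0.13, adjusted p = 0.0056, edgeR with Benjamini-Hochberg adjustment). This fall was called in 22 of 22 alternative fits, with adjusted p values from 0.00094 to 0.028 (Benjamini-Hochberg). LPS-CPD-4645 and sham-vehicle mice differed by −0.08 (SE 0.14, adjusted p = 0.66, edgeR with Benjamini-Hochberg adjustment), with an interval from −22.7% to 15.3%. The overlapping pseudogene *Gm15719* had 1 count in all 13 libraries together.

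In 3 marker lists more genes rose than fell after LPS, and more fell than rose under CPD-4645. Of 8 endothelial markers, 4 rose and 1 fell after LPS and 4 fell under CPD-4645, with sums of 336 to 528, 404 to 841 and 489 to 642 CPM in sham-vehicle, LPS-vehicle and LPS-CPD-4645 mice. Of 7 neutrophil markers tested, 7 rose after LPS and 7 fell under CPD-4645, with sums of 1.23 to 5.33, 62.9 to 269.7 and 7.04 to 27.0 CPM. Of 5 monocyte and macrophage markers tested, 5 rose and then 2 fell, with sums of 14.7 to 20.1, 46.6 to 105 and 19.2 to 32.5 CPM. Between LPS-CPD-4645 and sham-vehicle mice, where *Napepld* was not called, 3 of 7 neutrophil and 1 of 5 monocyte and macrophage markers were higher and 0 lower. Of the 8 endothelial markers 2 were higher and 3 lower there. No marker of these 3 lists was at 0 in every mouse of a group. The part of these cells in the *Napepld* differences was not tested.

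**Figure D3:**
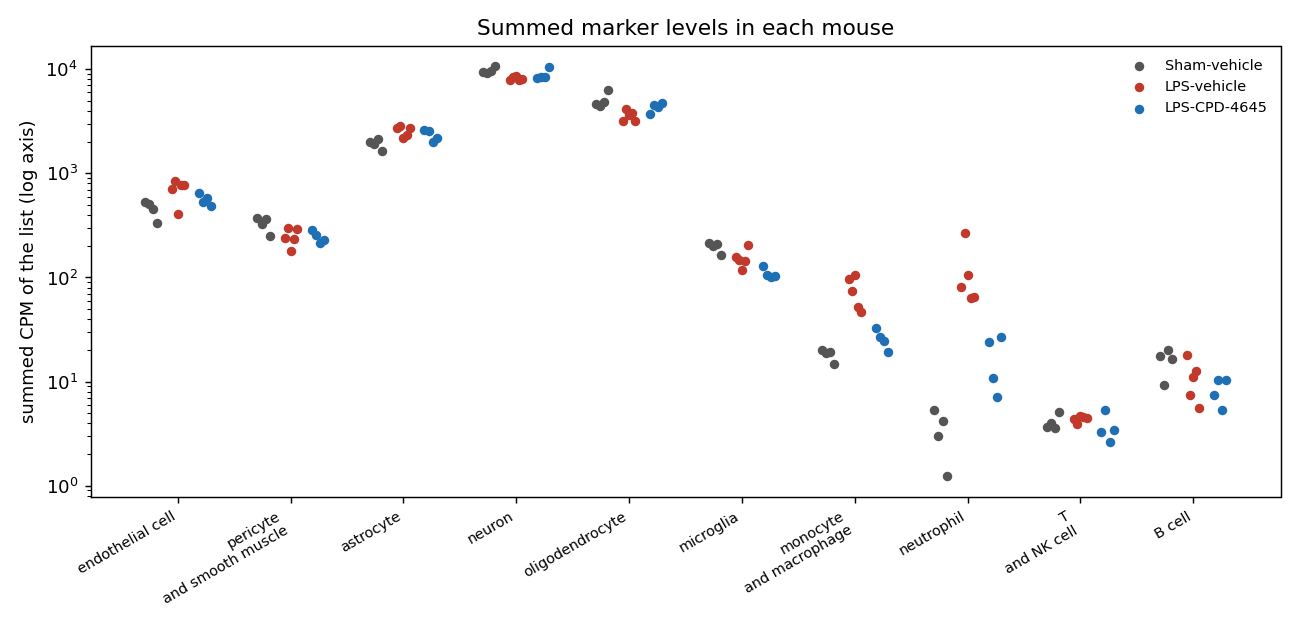
Summed CPM of each marker list in each mouse on a log axis, with 1 point per mouse coloured by group. The neutrophil sums of LPS-vehicle mice (62.9 to 269.7 CPM) lie above those of both other groups, and the neuronal sums are the highest of all lists in every mouse.

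*Faah* encodes the membrane hydrolase that ends the action of anandamide (chromosome 4, 115967145 to 116017926, minus strand). It stood at 82.8, 106, 94.5 and 89.9 CPM in sham-vehicle mice, at 90.2 to 95.3 CPM in the 5 LPS-vehicle mice and at 85.5, 83.8, 93.5 and 89.6 CPM in LPS-CPD-4645 mice. The LPS-vehicle mice lay inside the sham-vehicle range and close together. LPS-vehicle and sham-vehicle differed by −0.01 (SE 0.076, adjusted p = 0.96, edgeR with Benjamini-Hochberg adjustment), with an interval from −10.8% to 11.1%, and the sign changes with limma-voom. *Napepld* was 17.7% ± 2.65 (SD, n = 4) of the summed level per kb of *Napepld* and *Faah* in sham-vehicle, 22.6% ± 1.75 (SD, n = 5) in LPS-vehicle and 17.5% ± 2.18 (SD, n = 4) in LPS-CPD-4645 mice. These shares are given as a description.

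**Figure D4:**
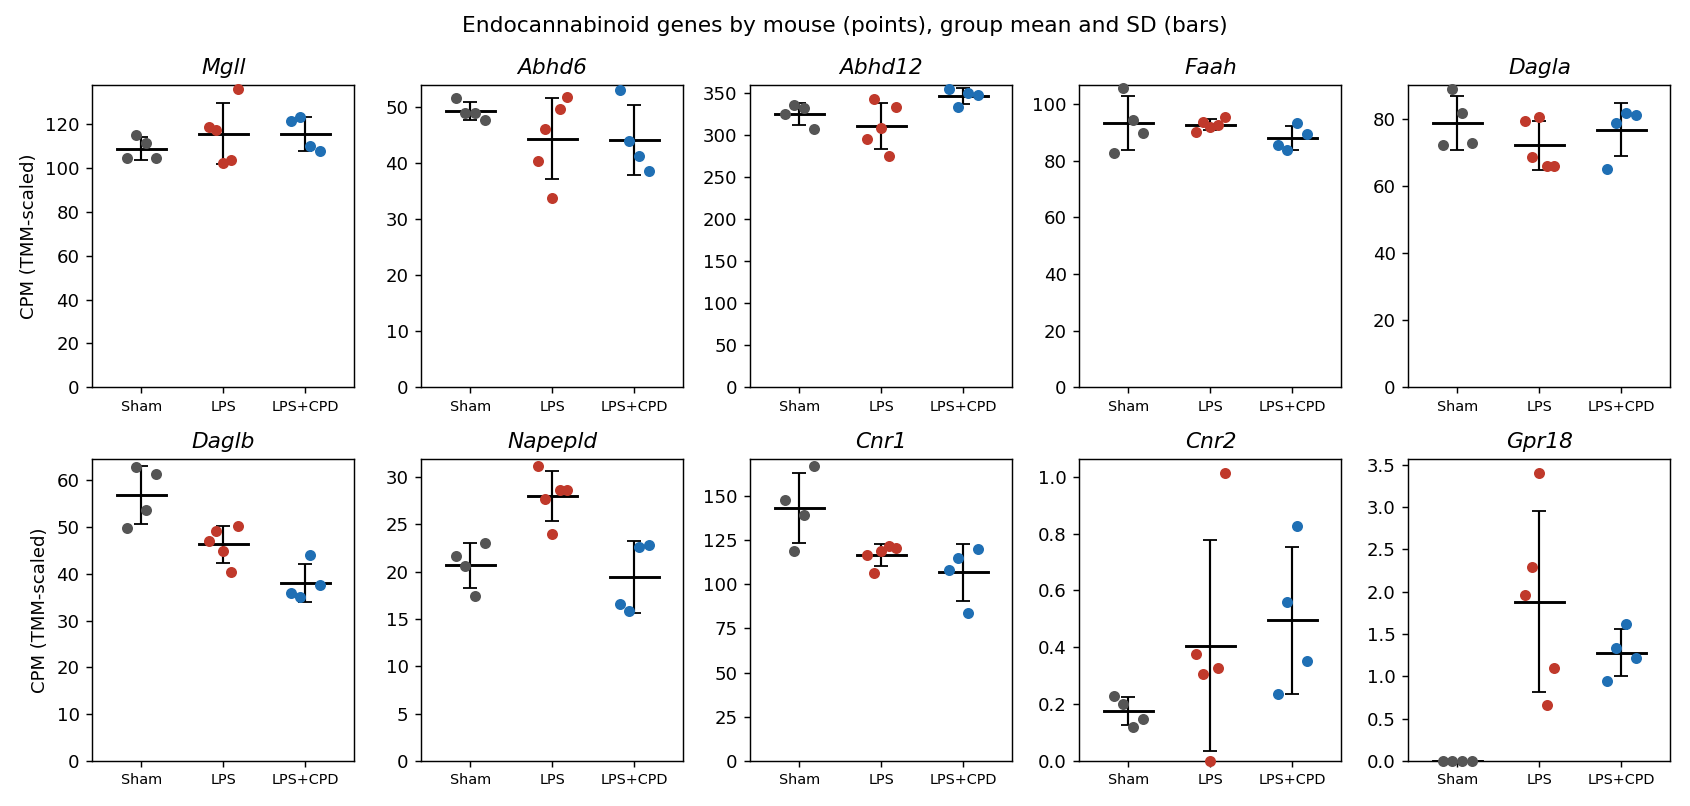
CPM of the 10 genes, 1 panel each with its own scale from 0, with 1 point per mouse and the group mean ± SD in black. All LPS-vehicle points of *Napepld* lie above those of both other groups, *Daglb* steps down across the 3 groups, and *Gpr18* is at 0 in all 4 sham-vehicle mice.

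*Cnr1* encodes CB1 (chromosome 4, 33924593 to 33948831, plus strand). Sham-vehicle mice had 147, 119, 139 and 167 CPM. LPS-vehicle mice had 117, 106, 119, 121 and 120 CPM. LPS-CPD-4645 mice had 108, 115, 83.5 and 120 CPM. Sham-vehicle mouse 2 lay within the LPS-vehicle range, and the other 3 sham-vehicle mice lay above all LPS mice. After LPS the difference was −0.30 (SE 0.10, adjusted p = 0.054, edgeR with Benjamini-Hochberg adjustment), just short of the threshold, and 8 of 22 alternative fits called it. From sham-vehicle to LPS-CPD-4645 *Cnr1* fell by 25.5% (−0.42, SE 0.11, adjusted p = 0.0056, edgeR with Benjamini-Hochberg adjustment), a call made in 22 of 22 alternative fits. Between the LPS groups the difference was −0.13 (SE 0.11, adjusted p = 0.38, edgeR with Benjamini-Hochberg adjustment). Neuronal markers summed to 9279 to 10667 CPM in sham-vehicle, 7870 to 8711 in LPS-vehicle and 8335 to 10581 in LPS-CPD-4645 mice. Of these 8 markers, 2 fell in each comparison with sham-vehicle and none was at 0, and their part in the *Cnr1* difference was not tested.

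*Gpr18* was the gene of the 10 with the widest contrast (chromosome 14, 121911253 to 121915781, minus strand). It had 0 counts in all 4 sham-vehicle libraries. LPS-vehicle mice had 57, 128, 27, 24 and 37 counts, or 1.96, 2.3, 3.4, 0.657 and 1.1 CPM. LPS-CPD-4645 mice had 12, 38, 43 and 31 counts, or 0.949, 1.33, 1.62 and 1.22 CPM. Every LPS mouse thus stood above the sham-vehicle mice, and the 2 LPS groups overlapped. With 3 counts per sham-vehicle library as the floor (0.118 CPM on average), the level was at least 15.9-fold higher in LPS-vehicle mice (adjusted p = 1.1e-05) and at least 10.8-fold higher in LPS-CPD-4645 mice (adjusted p = 1.5e-05, both edgeR with Benjamini-Hochberg adjustment). Set against the highest floor of a sham-vehicle library, the lowest mouse was at least 4.44-fold higher in LPS-vehicle and at least 6.40-fold higher in LPS-CPD-4645, the reverse order of the bounds from the group means. These bounds cover counting error only. A gene that passes the filter on low counts only through its high groups had to differ, so this call adds nothing to the levels themselves.

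Between the LPS groups *Gpr18* differed by −0.50 (SE 0.46, adjusted p = 0.45, edgeR with Benjamini-Hochberg adjustment), and the interval from −64.3% to 40.9% leaves a wide range. The neutrophil sums in the same mice fell from 62.9 to 269.7 CPM to 7.04 to 27.0 CPM between these groups, as given above. T and NK cell markers summed to 3.58 to 5.09, 3.89 to 4.66 and 2.63 to 5.28 CPM in the 3 groups, with *Nkg7* at 0 in all sham-vehicle mice and *Cd3e*, *Cd3g* and *Cd8a* at 0 in all LPS-CPD-4645 mice. B cell markers summed to 9.29 to 20.2, 5.63 to 17.9 and 5.31 to 10.4 CPM, with *Ms4a1* at 0 in all LPS-vehicle mice. Neither lymphocyte list had a gene called after LPS, with 2 genes tested in each. After LPS 7 of 7 neutrophil and 5 of 5 monocyte and macrophage markers tested rose. Of 8 endothelial markers 4 rose and 1 fell, and of 8 astrocyte markers 3 rose and 0 fell. Under CPD-4645 relative to LPS-vehicle, 7 of 7 neutrophil and 2 of 5 monocyte and macrophage markers fell and 0 rose, and *Gpr18* was not called. The part of these cells in the *Gpr18* level was not tested. *Gpr18* lies within *Ubac2* on the other strand without shared exon bases, and *Ubac2* stood at 52.9 ± 3.70 CPM (SD, n = 4) in the same sham-vehicle mice that had no *Gpr18* count.

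*Cnr2* (chromosome 4, 135895394 to 135920207, plus strand), which encodes CB2, was close to the limit of detection. Sham-vehicle libraries had 8, 5, 3 and 3 counts, or 0.228, 0.201, 0.119 and 0.148 CPM. LPS-vehicle libraries had 11, 17, 0, 12 and 34 counts, or 0.378, 0.305, 0, 0.329 and 1.01 CPM. LPS-CPD-4645 libraries had 3, 16, 22 and 9 counts, or 0.237, 0.56, 0.828 and 0.353 CPM. The library with 0 counts was the smallest of all, in which 3 counts correspond to 0.378 CPM. Leaving that library aside, each LPS mouse had a higher CPM than each sham-vehicle mouse. *Cnr2* passed the filter on low counts only through the LPS groups, so this order adds nothing to the levels themselves. The fitted differences over all mice did not pass. They were 144% for LPS-vehicle (95% interval −8.97% to 552%, adjusted p = 0.20) and 183% for LPS-CPD-4645 (1.03% to 691%, adjusted p = 0.10, both edgeR with Benjamini-Hochberg adjustment).

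The genes whose centred log2 CPM followed a member most closely over the 13 mice were found among the 14845 tested genes that averaged 1 CPM or more, by the root mean square (RMS) difference. For *Napepld*, whose own RMS spread was 0.30, they were *Faap24* (0.14), *Slc50a1* (0.15) and *Ccdc28b* (0.16). *Slc50a1*, which encodes a sugar transporter, averaged 52.9, 69.9 and 50.3 CPM in sham-vehicle, LPS-vehicle and LPS-CPD-4645 mice, the same up and down course. *Daglb* (own spread 0.26) was closest to *Chrm1*, the M1 muscarinic receptor (0.098), *Rap2b*, a small GTPase (0.099), and *Dmtn*, an actin-binding protein (0.10). *Chrm1* averaged 119.8, 92.7 and 76.2 CPM and so stepped down like *Daglb*. *Cnr1* (0.23) had the closest neighbours, *Hspa4l* (0.053), *Klhl9* (0.057) and the presynaptic scaffold gene *Pclo* (0.063). *Gpr18* (2.10) was nearest to *Timp1* (0.51), *Bcl3* (0.52) and *Cebpd* (0.55), of which *Timp1*, an inhibitor of metalloproteinases, averaged 0.726, 18.4 and 16.2 CPM. For *Mgll* (0.12) the nearest were *Ssbp2* (0.082), *Poldip2* (0.084), *Nudt9* (0.084), *Phrf1* (0.088) and *Otud5* (0.092), so that these differences were a large part of the spread of *Mgll* itself. These are descriptions over the same mice.

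Beyond the 10, a wider list of 27 genes covered other routes of anandamide synthesis, breakdown, carriers, receptors, and the release and oxygenation of arachidonic acid, and 21 of them were tested. After LPS 4 rose and 4 fell (8 of 21, where 19.9% of all genes were called), under CPD-4645 relative to LPS-vehicle 2 rose and 4 fell (30.5% of all genes), and relative to sham-vehicle 2 rose and 4 fell (38.8% of all genes). Their median log2 fold changes were −0.07, −0.03 and −0.02. *Alox12*, among the genes that fell in both comparisons with sham-vehicle, passed the filter on low counts only because of its sham-vehicle counts. By role, after LPS 1 of 9 tested genes of anandamide synthesis rose and 1 fell, 1 of 2 breakdown genes rose, 2 of 4 carriers or receptor partners fell, 1 of 3 other receptors rose, and of 3 genes of arachidonate release or oxygenation 1 rose and 1 fell.

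Changes of at least 2-fold were found for *Ptgs2*, *Fabp7* and *Alox12*. *Ptgs2*, which encodes the inducible cyclooxygenase COX-2, an enzyme that can also oxygenate 2-AG and anandamide, had 7.99, 5.51, 6.13 and 9.68 CPM in sham-vehicle mice. LPS-vehicle mice had 20.1, 67.1, 43.4, 22.3 and 23.5 CPM. LPS-CPD-4645 mice had 48.1, 33.1, 13.6 and 32.7 CPM. Every LPS mouse was above every sham-vehicle mouse, and *Ptgs2* rose by 2.27 after LPS (SE 0.37, adjusted p = 0.00024, edgeR with Benjamini-Hochberg adjustment) and by 2.11 from sham-vehicle to LPS-CPD-4645 (SE 0.38, adjusted p = 0.00031, edgeR with Benjamini-Hochberg adjustment). The LPS groups overlapped widely.

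*Fabp7*, a brain fatty acid-binding protein that carries anandamide in the cytosol and marks radial glia and astrocytes, had 38.7, 32.9, 47.4 and 30.1 CPM in sham-vehicle mice. LPS-vehicle mice had 27.5, 10.5, 20.2, 12.7 and 22.5 CPM. LPS-CPD-4645 mice had 8.38, 8.25, 10.1 and 6.48 CPM. The 3 groups did not overlap, and *Fabp7* fell by 1.01 on the log2 scale after LPS (SE 0.23, adjusted p = 0.0037) and by a further 1.16 under CPD-4645 (SE 0.24, adjusted p = 0.0016, both edgeR with Benjamini-Hochberg adjustment). The 8 astrocyte markers summed to 1649 to 2131, 2189 to 2832 and 2025 to 2607 CPM, with 3 higher and 0 lower after LPS and 0 called under CPD-4645. *Alox12*, a 12-lipoxygenase best known from platelets, had 67, 83, 56 and 20 counts in sham-vehicle libraries, 9, 10, 0, 2 and 4 in LPS-vehicle and 7, 10, 7 and 0 in LPS-CPD-4645 libraries. It fell by 3.79 after LPS (SE 0.68, adjusted p = 0.00058) and by 2.94 from sham-vehicle to LPS-CPD-4645 (SE 0.71, adjusted p = 0.0033, both edgeR with Benjamini-Hochberg adjustment). *Alox12* passed the filter on low counts only because of its sham-vehicle counts, so these calls add nothing to the levels themselves.

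Smaller changes, named after their values were seen, included other enzymes of N-acylethanolamine metabolism. After LPS *Pla2g4e*, an N-acyltransferase that makes the substrate of NAPE-PLD, rose by 0.41 (SE 0.11, adjusted p = 0.013) and *Naaa*, a lysosomal acid amidase, rose by 0.52 (SE 0.17, adjusted p = 0.042, both edgeR with Benjamini-Hochberg adjustment). *Gde1*, a glycerophosphodiesterase of an alternative route to anandamide, fell by 0.24 after LPS (adjusted p = 0.046) and rose by 0.34 under CPD-4645 (adjusted p = 0.0040, both edgeR with Benjamini-Hochberg adjustment). *Gde1* averaged 378, 320 and 406 CPM in the 3 groups and so ran opposite to *Napepld*. *Cnrip1*, which encodes a CB1-interacting protein, fell by 0.25 after LPS (SE 0.064, adjusted p = 0.010, edgeR with Benjamini-Hochberg adjustment). *Pla2g4a*, the cytosolic phospholipase A2 that releases arachidonic acid, fell by 0.81 under CPD-4645 (SE 0.30, adjusted p = 0.046, edgeR with Benjamini-Hochberg adjustment).

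**Figure D5:**
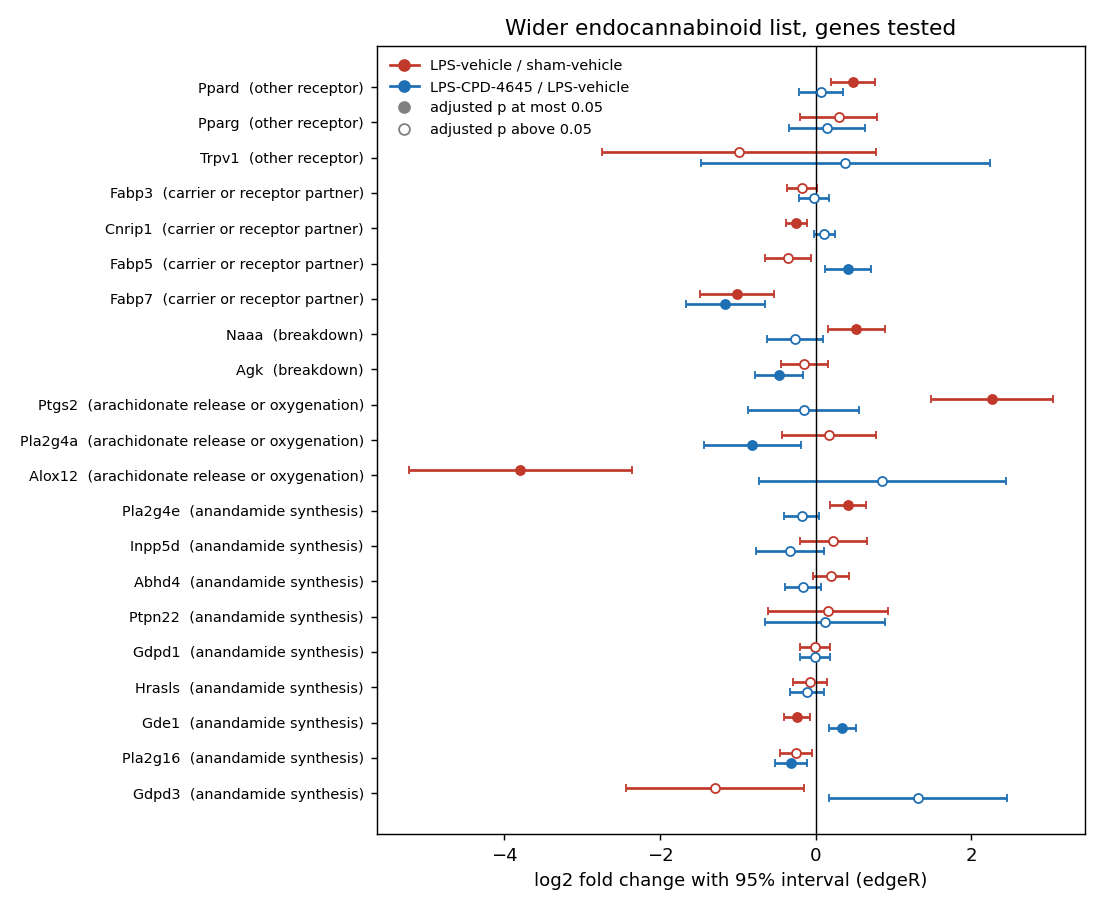
Log2 fold change with its 95% interval (x axis) for the 21 tested genes of the wider list, labelled with their role, after LPS and under CPD-4645, with filled points at an adjusted p of at most 0.05. *Ptgs2* lies farthest right after LPS, *Alox12* farthest left, and *Fabp7* lies left of 0 in both comparisons.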

How the data were processed

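The authors aligned reads of stranded poly(A) libraries to GRCm38 with STAR 2.5.2a, after bcl2fastq 2.15.0.4, and took gene counts from the same aligner with the basic set of GENCODE M9. The deposited values are whole-number counts, 1 column per mouse, without normalization. Symbols, positions and exon lengths were taken from GENCODE M21 on the same build, which 47224 of 47643 identifiers matched, and start regions from RefSeq.

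The tests used edgeR 4.0.16 (R 4.3.3). Low genes were removed with filterByExpr (minimum count 10, minimum total 15), which left 17285 of 27934 genes with any count, scaled by TMM (factors 0.908 to 1.08) and fitted as 3 groups without covariates. Log2 CPM used a prior count of 2. Fold changes against a group with at most 3 counts in every library are given as lower bounds. Alternatives were limma 3.58.1 (voom, with and without quality weights), DESeq2 1.42.0, its size factors, other filters, only the groups compared, a replicate block, and libraries left out. The script was tested on simulated data.

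The 10 genes, the wider list and the markers were chosen with earlier results of these data known. Named genes are the 10 members, genes of the wider list called at 2-fold or more, the nearest patterns (5 for *Mgll*, 3 for each called member) and overlapping genes. Others were chosen after their values were seen. The level of 1 marker gene is not reported here. Replicate pairs differed by 9.82 to 61.1 times counting error (chi-square per gene, 22 pairs), so the spread between mice set the precision except near 0 counts.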

Additional observations from a re-analysis of the deposited data

Results flagged for a closer look

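The *Dagla* level of LPS-CPD-4645 mouse 1, 65.0 CPM, stood apart from the other 3 mice of its group (78.9, 81.7 and 81.2 CPM). The gap to the nearest of them was 0.832 of the range of the group, just above the critical value of 0.829 of Dixon's test for 4 samples. It was 1 of 29 groups examined, and chance flags about 1 in 20. This library was among the smallest of the series, with 12548404 counts, 822 of them for *Dagla*. Without it, the difference of *Dagla* between LPS-CPD-4645 and sham-vehicle mice was 0.04 in place of −0.04 on the log2 scale, and neither was called.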

How the results depend on the processing

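Over 22 alternatives and 30 differences of single genes, 588 of 646 values kept their direction and side of the threshold, 21 lost and 9 gained the call, and 28 changed sign, all of them in 6 differences that were not called. These were *Faah* after LPS (0.0016 with limma-voom, 0.038 with quality weights, −0.060 to 0.061 with libraries left out), *Mgll* between the LPS groups (0.016 with quality weights, 0.0054 with DESeq2, 0.0062 with its size factors, 0.0084 with only these groups, 0.064 with the replicate block, −0.042 to 0.063 with 1 library left out), *Abhd6* between them (0.044 with the replicate block, −0.11 to 0.054 with 1 library left out) and *Cnr2* (−0.13 without LPS-CPD-4645 mouse 3, and up to 0.42 without another library), and, relative to sham-vehicle, *Dagla* (0.032 without the 2 libraries with fewest counts, −0.079 to 0.043 without 1 library) and *Napepld* (0.0054 without LPS-CPD-4645 mouse 2, and down to −0.16 without another library). The *Cnr2* difference between the LPS groups, 0.21 in the edgeR fit of all mice, reached 0.83 among the alternatives. The 3 genes called after LPS became 1 to 4 when 1 mouse was left out, with 1 without sham-vehicle mouse 3 or LPS-vehicle mouse 1. The 2 genes called between the LPS groups became 1 with no filter, with only these groups, with the replicate block, without the 2 smallest libraries, and 1 to 2 when 1 mouse was left out (sham-vehicle mouse 3, LPS-vehicle 1, 2 or 5, LPS-CPD-4645 1, 2 or 4). In each of these the call of *Daglb* was lost, and the cause was not tested. A mean count of at least 50 left 8 members without *Gpr18* and *Cnr2*, and 0 changed 2-fold in either comparison with sham-vehicle. Over all genes it gave 632 in place of 1019 genes changed 2-fold between the LPS groups. Same-numbered mice did not pair (correlation of deviations −0.035 to 0.11 over 12 pairs), and the replicate block gave 3539, 5083 and 6811 calls over all genes in place of 3446, 5271 and 6713. *Cnr2* and *Gpr18* had the lowest counts of the 10 genes, 0 to 34 and 0 to 128 per library. Without the 2 smallest libraries neither gained or lost a call.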

Other observations

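Of the wider list, 6 genes had too few counts to be tested. Among receptors, *Gpr55*, *Gpr119* and *Ppara* had 0 to 15, 0 to 5 and 0 to 18 counts per library, and all 7 *Gpr119* counts fell in sham-vehicle libraries. *Ces1d*, *Alox15* and *Hrasls5* reached at most 10, 18 and 5 counts. *Ppara*, which encodes the nuclear receptor for palmitoylethanolamide, averaged 0.137, 0.180 and 0.474 CPM in sham-vehicle, LPS-vehicle and LPS-CPD-4645 mice. *Gdpd3*, a lysophospholipase D, was tested and differed by −1.30 after LPS (SE 0.54, adjusted p = 0.11) and by 1.32 under CPD-4645 (SE 0.55, adjusted p = 0.076, both edgeR with Benjamini-Hochberg adjustment), with values of 1.61 to 14.9, 2.40 to 4.88 and 2.48 to 15.4 CPM in the 3 groups, which overlapped. These genes were chosen after their values were seen.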
